A study of Homo sapiens with 16 samples.

Results

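The response to a phorbol ester in cells also given a mineralocorticoid was measured by setting 4 arrays of cells treated with DOC plus PMA against 4 arrays of cells treated with DOC, 8 of the 16 arrays of the series. The cells were HEK293, an established line from human embryonic kidney. All 16 arrays came from cells that carried a transfected MR expression plasmid (MR, the mineralocorticoid receptor, is encoded by NR3C2), added at 500 ng per well 24 h before treatment, so both groups held the receptor plasmid and the steroid and differed in PMA. DOC is deoxycorticosterone acetate, a mineralocorticoid, given at 100 nM, and PMA is phorbol 12-myristate 13-acetate, given at 10 nM. Treatment lasted 4 h in every group, and the other 8 arrays held cells given vehicle or PMA without steroid. The title of the series sets the question of how MR acts on AP-1 and inflammatory signalling. Cells lacking the MR plasmid were not analysed here, and the plasmid is carried by a transiently transfected line rather than by a tissue that makes the receptor itself. The labels call the 4 arrays of a group biological replicates.

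PMA mimics diacylglycerol, the membrane lipid that switches on protein kinase C. Through protein kinase C and the RAS exchange factors that also bind diacylglycerol, it activates the ERK kinase cascade, which phosphorylates transcription factors already present in the cell and turns on immediate early genes such as FOS and EGR1. FOS and JUN proteins pair to form AP-1, which binds the promoters of cytokine and matrix protease genes, while phosphatases of the DUSP family, Sprouty proteins and the mRNA decay factor ZFP36 end the signal. MR is a nuclear receptor that binds DNA once a steroid such as DOC occupies it.

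Correlations over the 12495 genes tested were 0.992 to 0.997 among DOC arrays, 0.994 to 0.996 among DOC plus PMA arrays and 0.966 to 0.972 between the groups. DOC replicate 1, DOC plus PMA replicate 2 and PMA replicate 2 departed from their group means together, and without these 3 arrays 5431 genes passed the test described below, against 5323 with them. All 10 HEK293 markers were tested. Before the filter on dim signals their mean level was 8.25 to 8.37 on the log2 scale in the DOC arrays and 8.67 to 8.82 in the DOC plus PMA arrays, and the lowest was NES, an intermediate filament gene, at 4.37. Of these markers NEFM, KRT8, KRT18 and LHX1 were higher with PMA and NEFL and PAX2 lower, although PAX2 lost its call in 7 alternative settings. Leukocyte markers had a mean level of 3.89 to 3.99 with DOC and 4.02 to 4.12 with DOC plus PMA, and 7 of 8 lay below 4.91, the lowest of the array medians, PTPRC among them at 2.13. The exception was the actin-bundling gene LCP1 at 9.20. The leukocyte marker CORO1A was higher by 0.54 ± 0.12 on 1 probe set, while another did not pass (-0.01), and its part in the results was not tested. Endothelial markers lay at 4.04 to 4.10 and 4.04 to 4.17, and fibroblast markers at 3.26 to 3.36 and 3.28 to 3.37, in the same order of groups. In RNA from whole cultures, a change in the number of cells of a type and a change in RNA per cell cannot be told apart.

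PMA changed a large share of the transcripts that were measured. Of 12495 genes tested with limma, 5323 (42.6%) had an adjusted p (Benjamini-Hochberg) under 0.05 and are called passed, 1958 of them (15.7%) higher with DOC plus PMA and 3365 (26.9%) lower. Most differences were small, and the large ones ran upward. At least 2-fold higher were 256 genes (2.05%) and at least 2-fold lower 171 (1.37%), and at 4-fold the numbers were 78 (0.624%) and 5 (0.04%). All 4 DOC plus PMA arrays lay above all 4 DOC arrays in 1771 genes (14.2%) and below them in 3092 (24.7%). The balance of small differences rested on the scaling of the arrays: 36.8% of the called genes were higher in the deposited scaling, 50.4% after cyclic loess and 52.1% after shifting all arrays to a common median. The median difference over all genes was -0.05 on the log2 scale, and RMA gives all arrays one distribution, so a shift of all transcripts in one direction is not visible. The median standard error of a difference was 0.0879.

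The 12 largest rises and the 12 largest falls were taken only from genes that passed and whose groups of arrays did not overlap. The rises, from 18.0-fold to 74.5-fold, included transcription factors (EGR3, FOS, EGR1), chemokines (CXCL8, CCL7), and protease and clotting genes (MMP10, TFPI2, F3). EGR3, a zinc finger factor induced by ERK signalling, read 3.22, 2.87, 2.67 and 2.69 (log2 level) in the DOC arrays and 9.12, 9.24, 8.87 and 9.10 in the DOC plus PMA arrays. The difference was 6.22 ± 0.12 (SE, n = 4 per group, limma adjusted p = 5.95e-17), the largest of all genes tested as measured, and more than 5 log2 units separated the nearest arrays of the groups. The DOC readings lay below the lowest array median, and whether they exceed background is not known from these values, so the size and rank of this rise, and of others from dim readings, hold for the RMA values alone.

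CXCL8, the neutrophil chemokine interleukin-8, read 5.46, 5.26, 5.65 and 5.86 with DOC and 11.70, 11.79, 11.49 and 11.59 with DOC plus PMA, a difference of 6.08 ± 0.16 (limma adjusted p = 2.29e-15). FOS read 4.44, 4.22, 4.33 and 4.15 with DOC and 10.09, 10.14, 10.10 and 10.06 with DOC plus PMA, and EGR1 7.12, 7.00, 7.60 and 7.32 against 12.95, 13.04, 12.90 and 12.98. Neither gene's groups came near to overlapping. The differences were 5.81 ± 0.11 for FOS and 5.71 ± 0.13 for EGR1. ARC, an immediate early gene known from synaptic activity, read 4.54, 4.54, 5.60 and 4.57 with DOC and 10.66, 11.11, 10.69 and 10.92 with DOC plus PMA, so that DOC replicate 3 stood 1 log2 unit above the other DOC arrays and far below all arrays with PMA.

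MMP10, the secreted protease stromelysin-2, read 2.80, 2.33, 2.27 and 2.73 with DOC, near the bottom of the scale, and 7.79, 8.34, 7.80 and 8.15 with DOC plus PMA. CCL7, a monocyte chemokine, read 2.82, 2.46, 2.07 and 2.27 against 8.06, 7.71, 7.72 and 7.73. The rises were 5.49 ± 0.14 and 5.40 ± 0.14, from DOC readings near the lowest value of the table, 1.21. In all, 6 of the 12 genes, and 80 of the 256 that rose at least 2-fold, had a DOC mean below the lowest array median.

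Clotting and protease control genes started higher. TFPI2, a secreted inhibitor of serine proteases, read 6.73, 6.97, 7.03 and 7.05 with DOC and 11.89, 11.79, 11.88 and 11.86 with DOC plus PMA (4.91 ± 0.10). F3, tissue factor, which starts the extrinsic clotting cascade, read 7.29, 6.65, 6.85 and 6.62 against 11.38, 11.33, 10.88 and 11.11 (4.33 ± 0.15). The remaining rises of this set were ARL14, a small GTPase of the ARF family (5.80 ± 0.11), C11orf96 (5.29 ± 0.13) and the early response gene IER3 (4.17 ± 0.15). Among genes at least 4-fold changed, the highest levels with DOC plus PMA belonged to EGR1, to GADD45B, a stress sensor (12.63, 12.76, 12.70 and 12.70), and to CCN2, connective tissue growth factor (11.86, 12.18, 11.89 and 11.91).

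**Figure D1:**
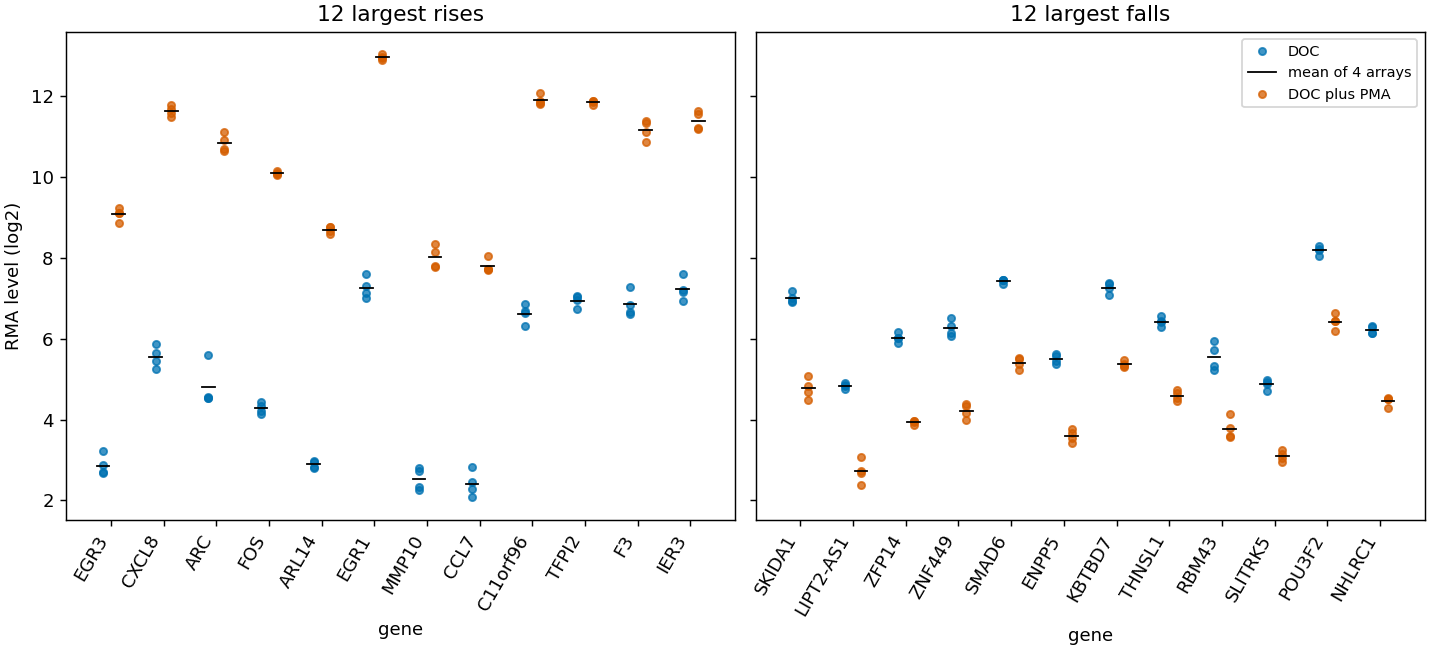
RMA level (log2) in each DOC array (blue) and each DOC plus PMA array (orange) for the 12 largest rises (left) and the 12 largest falls (right), with black lines at the mean of 4 arrays. Only genes whose groups do not overlap were eligible. The rises (4.17 to 6.22) exceed the falls (-1.77 to -2.24) in size.

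Because FOS and EGR1 were among the largest rises, the promoters of the genes that rose were searched for the sites such factors read. The windows, from RefSeq on GRCh38.p14, ran from 250 bases before to 50 bases after each gene's start, and both strands were searched. AP-1 was searched as TGANTCA, the cAMP response element as TGACGTCA, the EGR site as GCGTGGGCG, and the CArG box, bound by SRF, and the NF-kB site by their usual forms. No motif was required to avoid another. The AP-1 letters stood in 462 of 10257 windows of tested genes (4.50%), in 23 of 193 of genes at least 2-fold higher (11.9%), in 12 of 55 of genes at least 4-fold higher (21.8%) and in 3 of 136 of genes at least 2-fold lower (2.21%). Over all 27305 windows of the table the share was 7.76%. Of the 12 largest rises 7 had a window, and CXCL8, MMP10, CCL7, TFPI2 and F3 held the AP-1 letters, while none of the 8 windows found for the 12 largest falls did.

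The stretches below are shown because they belong to the genes with the largest rises, and to PLAUR, the urokinase receptor. They read 5′ to 3′ on the gene's strand, with the AP-1 letters in capitals, and EGR1 with its 2 CArG boxes in capitals. They lie at chr5:138465359-138465428 (+ strand) for EGR1, chr4:73740415-73740455 (+) for CXCL8, chr11:102780672-102780712 (- strand) for MMP10, chr17:34270153-34270193 (+) for CCL7, chr7:93890817-93890857 (-) for TFPI2, chr1:94541946-94541999 (-) for F3 and chr19:43670332-43670372 (-) for PLAUR, all upstream of the annotated start.
EGR1: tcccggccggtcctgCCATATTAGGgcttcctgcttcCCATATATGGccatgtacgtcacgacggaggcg
CXCL8: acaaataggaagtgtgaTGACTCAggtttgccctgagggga
MMP10: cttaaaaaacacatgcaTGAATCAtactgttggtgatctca
CCL7: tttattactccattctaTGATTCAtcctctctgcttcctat
TFPI2: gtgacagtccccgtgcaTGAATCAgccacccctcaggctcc
F3: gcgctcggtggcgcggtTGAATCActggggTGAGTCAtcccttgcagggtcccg
PLAUR: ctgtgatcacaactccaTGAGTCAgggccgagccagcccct

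F3 held the AP-1 letters at 2 places and the other AP-1 stretches at 1. Among genes at least 2-fold higher, 24 windows held the NF-kB site and 23 the AP-1 letters. Among those at least 4-fold higher, 8 of 55 (14.5%) held the NF-kB site and 12 the AP-1 letters. Over all 27305 windows the NF-kB share was 5.72%. The NF-kB share was 12.4% for genes at least 2-fold higher, 6.84% for tested genes and 4.41% for genes at least 2-fold lower. In the same order the cAMP response element stood in 4.66%, 3.32% and 1.47%, the EGR site in 3.63%, 1.34% and 2.94%, and the CArG box in 2.59%, 1.08% and 0 of 136 windows. The EGR site thus had a share above that of tested genes among the falls as well as the rises. The FOS window held none of the 5 motifs. A match of letters does not show that a factor was bound, and binding was not measured.

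The 12 largest falls, chosen by the same rule as the rises, ranged from 3.41-fold to 4.73-fold. SKIDA1 read 7.01, 6.91, 6.94 and 7.19 with DOC and 5.07, 4.69, 4.48 and 4.84 with DOC plus PMA, a difference of -2.24 ± 0.12 (limma adjusted p = 7.94e-11). SMAD6, an inhibitor of BMP signalling, read 7.45, 7.45, 7.36 and 7.45 against 5.50, 5.52, 5.38 and 5.24 (-2.02 ± 0.10), although another of its probe sets did not pass (0.01). The DOC arrays of SMAD6 agreed to within 0.0878 log2 units. POU3F2, a transcription factor of neural development, read 8.29, 8.21, 8.05 and 8.23 against 6.45, 6.64, 6.18 and 6.43 (-1.77 ± 0.10) and was the brightest of the 12.

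Zinc finger genes ZFP14 (-2.10 ± 0.11) and ZNF449 (-2.05 ± 0.13), the ubiquitin ligase genes KBTBD7 (-1.89 ± 0.10) and NHLRC1 (-1.77 ± 0.10), and SLITRK5, which encodes a neuronal membrane protein (-1.77 ± 0.13), were also in this set. The others were LIPT2-AS1 (-2.12 ± 0.17), ENPP5 (-1.90 ± 0.11), THNSL1 (-1.83 ± 0.10) and RBM43 (-1.78 ± 0.17). LIPT2-AS1 is annotated as antisense to LIPT2, and the strand its probes read was not checked. With DOC plus PMA, 9 of the 12 had a mean below the lowest array median, so their falls end near the dim end of the scale.

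Of 13 AP-1 genes tested, 8 were higher, 0 were lower and 5 did not pass, with a median difference of 0.73 against -0.05 for all genes. FOSB, of the FOS family, read 4.80, 4.32, 4.58 and 4.17 with DOC and 8.11, 8.80, 8.16 and 8.25 with DOC plus PMA. It rose by 3.86 ± 0.20, and FOSL1, of the same family, by 2.68 ± 0.13. JUNB, of the JUN family, read 5.49, 5.27, 5.06 and 5.10 against 7.25, 7.66, 7.12 and 7.69 (2.20 ± 0.15). JUN itself rose by 0.73, FOSL2 by 1.46, ATF3 by 1.15 and ATF7 by 0.25, while JUND (0.15), ATF2 (0.15), BATF2 (-0.22), BATF3 (-0.08) and JDP2 (0.00) did not pass. These 9 were named after their values were seen.

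Other transcription factors of the early response followed. All 5 tested EGR and NAB genes were higher (median 2.61): EGR4 by 2.61 ± 0.13, NAB2, a corepressor that binds EGR proteins, by 2.38 ± 0.12, and NAB1, which the naming rule did not choose, by 1.24. The 3 orphan nuclear receptors of the NR4A group were higher, NR4A1 reading 5.78, 6.19, 5.86 and 5.60 with DOC and 7.88, 8.06, 7.70 and 8.03 with DOC plus PMA (2.06 ± 0.15), NR4A3 by 1.87 ± 0.13 and NR4A2 by 1.03 ± 0.11. Of 13 Kruppel-like factors, 9 were higher and 2 lower. KLF10, induced by TGF-beta in other settings, rose by 1.80 ± 0.09 and KLF5 by 1.33 ± 0.12, whereas KLF11 (-0.49 ± 0.09) and KLF15 (-0.42 ± 0.10) fell. Another probe set of KLF11 did not pass (0.17).

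Of 22 other immediate early genes, 20 were higher and 1 lower (median 1.33). MAFF, a small MAF factor, read 3.69, 3.59, 3.70 and 3.27 with DOC and 7.97, 7.50, 7.48 and 7.66 with DOC plus PMA (4.09 ± 0.13). TRIB1, a pseudokinase, rose by 3.79 ± 0.08 and MCL1, a survival protein of the BCL2 family, by 1.20 ± 0.09. The gene that fell was HES1 (-0.33 ± 0.10), which did not pass in 3 alternative settings.

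Of 10 genes for DUSP phosphatases, which act on ERK and related kinases, 8 were higher and 0 lower (median 0.83). DUSP6, the phosphatase of ERK in the cytoplasm, read 5.43, 4.99, 5.46 and 5.14 with DOC and 8.94, 9.17, 8.67 and 9.15 with DOC plus PMA (3.73 ± 0.13). DUSP2 (2.45 ± 0.20), DUSP1 (2.16 ± 0.07) and DUSP5 (2.14 ± 0.09), nuclear phosphatases of the family, also rose. Of 14 genes in a list of Sprouty, SPRED, ETV factors and other ERK feedback, 9 were higher and 2 lower (median 1.25). SPRY2 read 6.71, 6.66, 6.64 and 6.73 against 8.79, 8.87, 8.74 and 8.87 (2.13 ± 0.07), and ETV5, an ETS factor downstream of ERK, rose by 2.72 ± 0.14. SPRY1 (-0.33 ± 0.07) and IL17RD (-0.63 ± 0.10), a membrane antagonist of FGF signalling, fell, so members of this list moved in both directions.

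Regulators of mRNA decay were higher in 8 of 10 cases. ZFP36, tristetraprolin, which binds AU-rich elements of cytokine mRNAs, read 7.70, 7.12, 7.53 and 7.49 with DOC and 11.53, 11.34, 11.04 and 11.13 with DOC plus PMA (3.80 ± 0.14). ZC3H12C rose by 0.97 ± 0.15, ZFP36L2 by 0.86 ± 0.09 and ZC3H12A, the endonuclease regnase-1, by 0.66 ± 0.12. TOB1 was lower (-0.20 ± 0.06) and lost its call in 4 alternative settings.

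Of 17 tested genes for protein kinase C, protein kinase D and other phorbol ester receptors, a list that also holds the atypical isoforms PRKCI and PRKCZ, 2 were higher (11.8%, against 15.7% of all genes) and 8 lower (47.1%, against 26.9%), with a median of -0.24. PRKCD, protein kinase C delta, read 6.29, 6.18, 6.15 and 6.07 with DOC and 7.29, 7.40, 7.25 and 7.29 with DOC plus PMA (1.14 ± 0.06), and PRKCI, an atypical isoform that does not bind phorbol esters, was higher by 0.47 ± 0.12 with overlapping arrays. PRKCQ (-0.49 ± 0.09), PRKD1 (-0.48 ± 0.10) and the RAS exchange factor RASGRP1 (-0.45 ± 0.09) fell. After cyclic loess or the common median, 6 were lower and 2 higher.

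Of 18 chemokine and cytokine genes tested, 11 were higher and 0 lower (median 0.82), and 11 of the 29 listed were not among the genes tested. CCL20, a chemokine for lymphocytes and dendritic cells, read 3.40, 2.72, 3.41 and 3.15 with DOC and 7.02, 6.97, 6.52 and 6.43 with DOC plus PMA (3.57 ± 0.20), and CCL2 3.16, 2.57, 2.78 and 2.94 against 5.92, 5.64, 5.44 and 5.42 (2.74 ± 0.19). Both started from dim readings and had no overlap of arrays. With the filter on dim signals set at the 60th percentile, 8 of the list were tested and 6 were higher.

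Matrix and plasminogen genes were higher in 11 of 16 cases and lower in 0 (median 1.00). PLAT, tissue plasminogen activator, read 8.34, 8.03, 7.94 and 7.81 with DOC and 10.32, 10.41, 9.95 and 10.00 with DOC plus PMA (2.14 ± 0.12). PLAUR read 6.34, 6.23, 6.20 and 6.00 against 7.92, 7.98, 7.81 and 7.93 (1.72 ± 0.11). Of 7 genes of prostaglandin synthesis and reception, 3 were higher (42.9%, against 15.7% of all genes) and 2 lower (28.6%, against 26.9%). PTGS2, cyclooxygenase-2, read 3.10, 3.34, 3.01 and 3.12 against 6.80, 7.08, 6.83 and 6.98 (3.78 ± 0.11), while HPGD, which inactivates prostaglandins, fell by 0.57 ± 0.10 and PTGES2 by 0.40 ± 0.10. Among 9 EGF family genes, 3 were higher (33.3%, against 15.7% of all genes) and 1 lower (11.1%, below the 26.9% of all genes). The ligand HBEGF rose by 1.99 ± 0.11 and its receptor EGFR by 0.84 ± 0.11. NRG1, also higher (0.26), lost its call in several alternative settings. The lower gene, ERBB2 (-0.29), lost its call after cyclic loess, and another of its probe sets was higher by 0.27 (limma adjusted p = 0.0179).

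NF-kB genes were higher in 8 of 15 cases (53.3%, against 15.7% of all genes) and lower in 1 (6.7%, against 26.9%), with a median of 0.30. The lower gene, TNIP1 (-0.17), lost its call in most alternative settings, and another of its probe sets did not pass (0.05). CD83, a surface protein, rose by 1.65 ± 0.12, the subunits RELB and NFKB1 by 1.51 ± 0.14 and 1.30 ± 0.09, and the inhibitor NFKBIZ by 1.22 ± 0.11. Of 19 integrin and adhesion genes, 8 were higher and 1 lower. EPHA2, an ephrin receptor, read 6.05, 5.58, 5.63 and 5.62 with DOC and 8.89, 9.17, 8.78 and 8.91 with DOC plus PMA (3.22 ± 0.11), CD44, the hyaluronan receptor, rose by 1.80 ± 0.18, and EPHA4 fell by 0.67 ± 0.08. Among 17 SRF and MRTF targets, 11 were higher and 1 lower, with CCN2 (3.10 ± 0.20), CCN1 (2.88 ± 0.09) and ANKRD1 (2.27 ± 0.21) the largest.

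**Figure D2:**
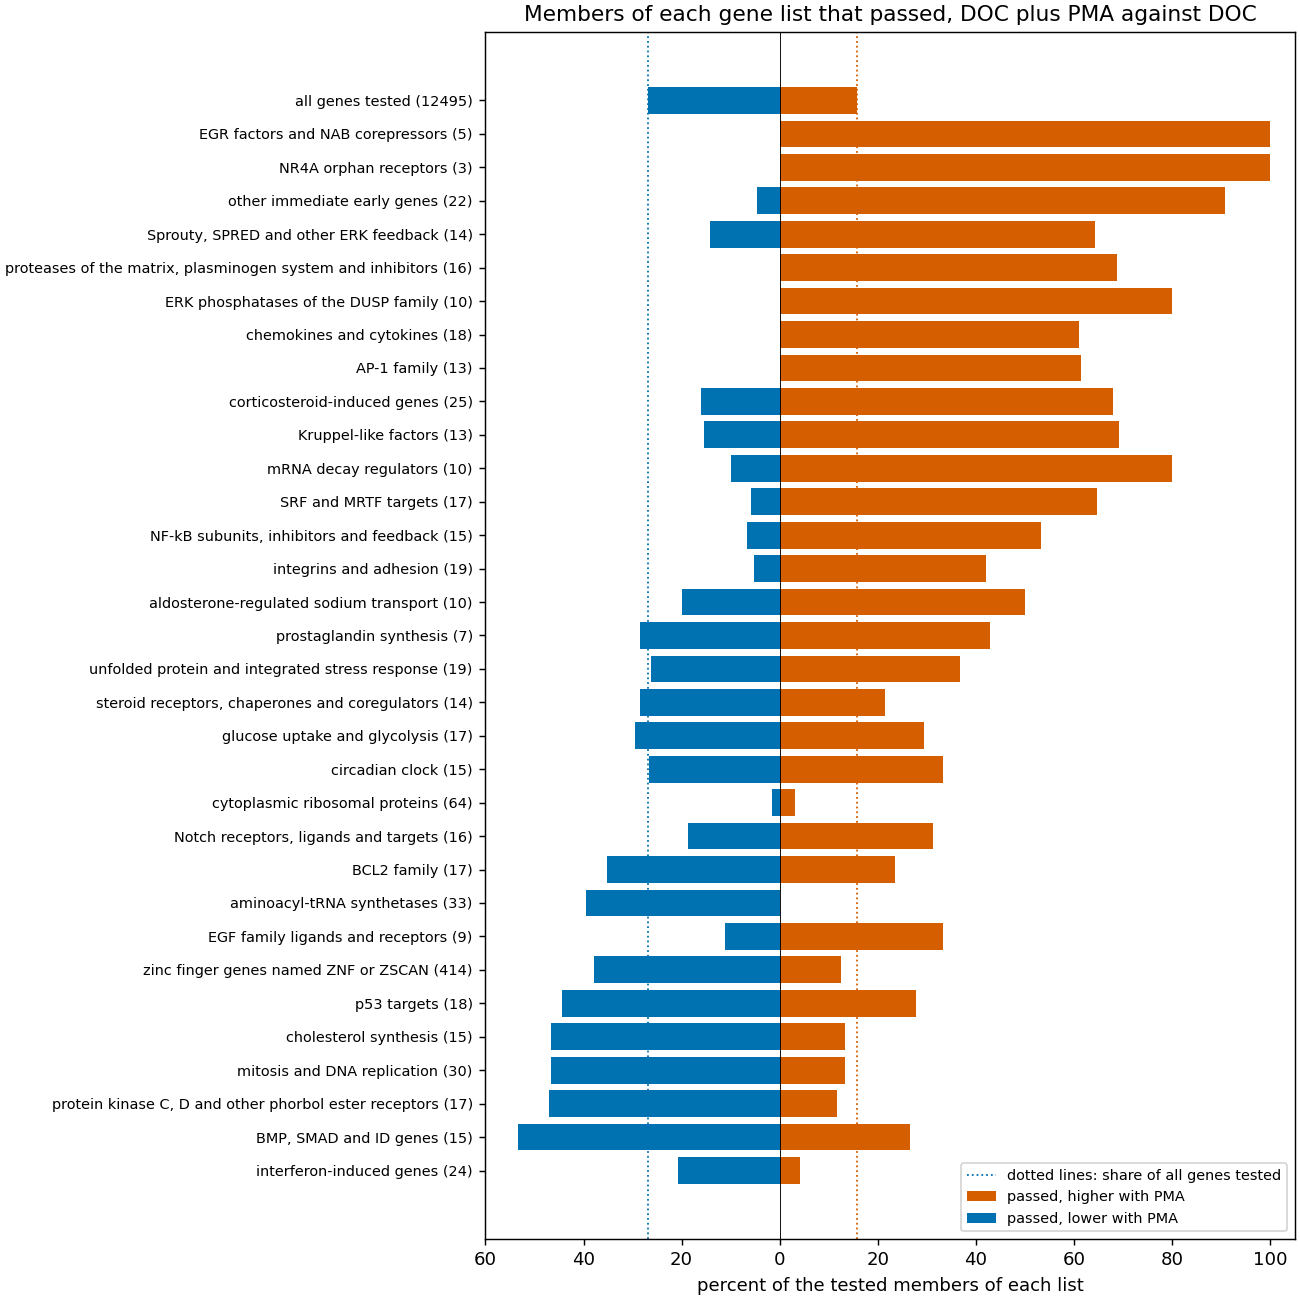
Share of the tested members of each gene list (number tested in parentheses) that passed as higher (orange, to the right) or lower (blue, to the left) with DOC plus PMA against DOC, in percent, ordered by median difference. Dotted lines mark the shares over all genes tested (15.7% and 26.9%). Most lists exceed the line on the higher side, the EGR and NR4A lists by most. The protein kinase C, cholesterol, mitosis, interferon, zinc finger, ribosomal and synthetase lists do not.

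Of 15 tested BMP, SMAD and ID genes, 8 were lower (53.3%, against 26.9% of all genes) and 4 higher (26.7%, against 15.7%), with a median of -0.33. ID3, an inhibitor of differentiation and a direct BMP target, read 8.87, 8.84, 8.98 and 8.86 with DOC and 7.44, 7.19, 7.49 and 7.41 with DOC plus PMA (-1.50 ± 0.08), and the signal transducers SMAD1 (-0.68 ± 0.10) and SMAD5 (-0.63 ± 0.12) fell, although another probe set of SMAD5 was higher by 0.36 (limma adjusted p = 0.0243). INHBA, an activin subunit, read 4.73, 5.41, 5.19 and 5.32 against 7.65, 7.95, 7.87 and 7.88 (2.67 ± 0.15), the ligand BMP2 rose by 1.33 ± 0.06, and ID4 by 1.22 ± 0.07 on a probe set that another of the gene opposed (-0.81). Of 16 Notch genes, 5 were higher (31.25%) and 3 lower (18.75%). The rises were led by NRARP, a feedback inhibitor of Notch, at 8.13, 7.97, 8.02 and 7.84 against 10.53, 10.85, 10.65 and 10.60 (2.67 ± 0.08).

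Zinc finger genes named ZNF or ZSCAN, many of them repressors, were lower in 157 of 414 cases (37.9%, against 26.9% of all genes). They were higher in 52 (12.6%, against 15.7%), with a median of -0.10. ZNF33B (-1.53 ± 0.10), ZNF248 (-1.38 ± 0.11) and ZNF362 (-1.35 ± 0.12) fell, and ZNF697 (1.46 ± 0.08) and ZNF365 (1.24 ± 0.15) rose. The counts moved with the scaling, to 130 lower and 93 higher after cyclic loess and to 127 and 91 at a common median. The balance over all called genes moved in the same direction. Of these, 50.4% were higher after cyclic loess and 52.1% at a common median, against 36.8% in the deposited scaling.

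Mitosis and replication genes were lower in 14 of 30 cases (46.7%, against 26.9% of all genes). They were higher in 4 (13.3%, against 15.7%), with a median of -0.22. KIF20A, a mitotic kinesin, fell by 0.66 ± 0.07, KIF11 by 0.58 ± 0.07 and the checkpoint kinase BUB1B by 0.53 ± 0.07. CCND1, cyclin D1, which acts in G1, read 7.55, 7.44, 7.51 and 7.42 with DOC and 8.91, 8.62, 8.41 and 8.52 with DOC plus PMA (1.13 ± 0.11). At a common median 10 were lower and 6 higher. Of 15 cholesterol synthesis genes, 7 were lower (46.7%) and 2 higher (13.3%). After cyclic loess or at a common median, 5 were lower and 2 higher. SQLE, squalene epoxidase, fell by 0.92 ± 0.08, and INSIG1, which retains the sterol sensor in the endoplasmic reticulum, rose by 0.71 ± 0.08.

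The p53 target list split, with 5 of 18 higher (27.8%, against 15.7% of all genes) and 8 lower (44.4%, against 26.9%). CDKN1A, the inhibitor p21, rose by 1.68 ± 0.15 and GADD45A by 1.00 ± 0.10, while SESN1 (-0.93 ± 0.08), TP53INP1 (-0.87 ± 0.10) and XPC, a DNA repair gene (-0.80 ± 0.08), fell. In the BCL2 family 4 of 17 were higher (23.5%) and 6 lower (35.3%), with a median whose sign turned with the scaling. Clock genes were higher in 5 of 15 cases (33.3%) and lower in 4 (26.7%, near the share of all genes). BHLHE40 rose by 1.60 ± 0.12, PER2 by 1.39 ± 0.12 and NFIL3 by 1.25 ± 0.06, and NR1D2 (-0.79 ± 0.09) and PER3 (-0.72 ± 0.13) fell.

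Stress response and sugar metabolism lists held changes in both directions. Of 19 unfolded protein and integrated stress response genes, 7 were higher (36.8%, against 15.7% of all genes) and 5 lower (26.3%, against 26.9%). PPP1R15A, a phosphatase subunit that restores translation, differed by 0.99 ± 0.13 and VLDLR, a lipoprotein receptor, by -1.19 ± 0.11. Of 17 glucose genes, 5 were higher (29.4%) and 5 lower (29.4%). ARRDC3, an arrestin-domain gene, fell by 1.21 ± 0.15 and PFKFB3, which makes an activator of glycolysis, rose by 1.07 ± 0.10. Interferon-induced genes were lower in 5 of 24 cases (20.8%, below the 26.9% of all genes) and higher in 1 (median -0.34). IFIT1 read 12.46, 11.73, 11.92 and 12.16 with DOC and 11.04, 10.59, 10.56 and 10.70 with DOC plus PMA (-1.34 ± 0.22), and IRF9 fell by 0.77 ± 0.10. The count of lower members moved with the setting: it was 3 without the 3 arrays that deviated together, 8 without DOC plus PMA replicate 1, 9 with the 8 arrays alone in the fit and 16 with the replicate block. Of 64 cytoplasmic ribosomal protein genes, 2 were higher (3.1%) and 1 lower (1.6%). Of 33 aminoacyl-tRNA synthetases 0 were higher and 13 lower (39.4%, against 26.9% of all genes). After cyclic loess 7 were lower and 1 higher, and at a common median 7 and 3. Fewer of all genes were lower under these 2 scalings too, so the 26.9% is not the share to set beside those counts.

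The genes of the steroid pathway were read in the same fit. NR3C2 read 7.34, 7.40, 7.36 and 7.43 with DOC and 6.95, 7.28, 6.88 and 6.99 with DOC plus PMA, a difference of -0.36 ± 0.11 (limma adjusted p = 0.00992) without overlap. Whether its probe set reads the plasmid's transcript is not given in the sources used here. NR3C1, the glucocorticoid receptor, did not pass (-0.06 ± 0.11, limma adjusted p = 0.73). Of 14 receptor, chaperone and coregulator genes, 3 were higher (21.4%, against 15.7% of all genes) and 4 lower (28.6%, against 26.9%). PPARGC1A, a coactivator, differed by -0.79 ± 0.13.

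Of 25 genes known to be induced by corticosteroids, 17 were higher with PMA on top of DOC (68%, against 15.7% of all genes). Lower were 4, a share below the 26.9% of all genes, and the median was 0.56. Most of the list was also higher in PMA against vehicle arrays, without steroid (median 0.39, 5 lower). The PMA response differed with and without DOC, by the interaction test described below, for 3 of the 25: TIPARP, PDK4 and RGS2. The list overlaps the early response and ERK feedback lists, with ZFP36, DUSP1, GADD45B, SGK1, KLF9 and ERRFI1 among the shared genes. SGK1, a kinase that raises sodium channel activity, read 7.60, 7.20, 7.56 and 7.39 with DOC and 8.87, 8.86, 8.83 and 9.03 with DOC plus PMA (1.46 ± 0.08). FKBP5, a cochaperone of steroid receptors, was higher by 0.28 ± 0.08 with overlapping arrays. TSC22D3, known as GILZ, read 9.64, 9.58, 9.73 and 9.38 against 8.94, 8.62, 9.00 and 8.89 (-0.72 ± 0.09), and DDIT4 (-0.94 ± 0.10) and ZBTB16 (-0.55 ± 0.11) fell too. PER1 did not pass (-0.25 ± 0.14, limma adjusted p = 0.175). Of 10 sodium transport genes, 5 were higher (50%, against 15.7% of all genes). Lower were 2 (20%, below the 26.9% of all genes), WNK1 and STK39. Of these, 0 were lower at a common median or with averaged probe sets. Only 1 was lower without the filter on dim signals, after cyclic loess, without DOC replicate 1, 2, 3 or 4, or without DOC plus PMA replicate 1, 3 or 4. Another probe set of STK39 did not pass (0.06). NEDD4L, a ubiquitin ligase for the sodium channel, was higher by 1.06 ± 0.08 on 1 probe set, while others at -0.03 and -0.25 did not pass, and EDN1, endothelin-1, by 0.89 ± 0.14 from a dim level.

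The response to PMA was then set beside that without steroid, in 4 PMA against 4 vehicle arrays, which share no array with the comparison above. Without DOC 5869 genes passed (47%), 2206 higher (17.7%) and 3663 lower (29.3%). Called in both were 4650 genes, which is 87.4% of the calls with DOC and 79.2% of those without, and 4646 of them had the same direction. All 427 genes that differed at least 2-fold with DOC also passed in the same direction without it. The differences correlated across genes at 0.959, and genes are not independent replicates. Among the 2-fold genes the difference was larger with DOC in 195 and smaller in 232, with a median ratio of 0.984. The median was 1.50 with DOC and 1.57 without for the genes that rose, and -1.18 and -1.23 for those that fell.

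**Figure D3:**
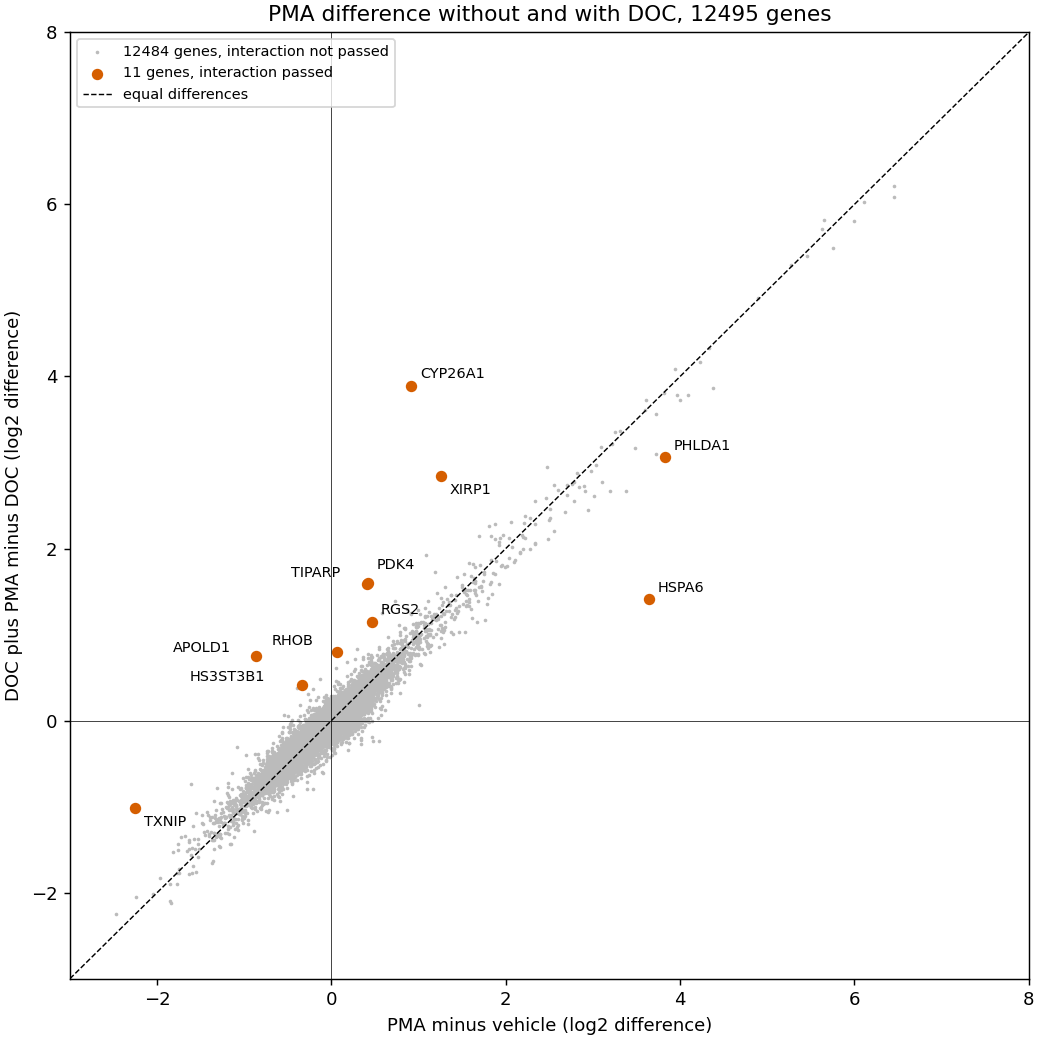
Log2 difference of DOC plus PMA minus DOC (vertical axis) against PMA minus vehicle (horizontal axis) for each of 12495 genes, with a dashed line at equal differences. Grey points follow the line (correlation 0.959), and the 11 labelled orange genes passed the test of a different PMA response with and without DOC.

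The difference between the 2 responses, the interaction, passed for 11 genes (0.088%). An unadjusted p under 0.05 was found for 370, fewer than the 625 that this threshold would give by chance over all genes tested. Its median standard error was 0.124. The number moved with single arrays: it was 5 without DOC replicate 4, 6 without vehicle replicate 2, PMA replicate 4, DOC plus PMA replicate 1 or DOC plus PMA replicate 4, and 7 without vehicle replicate 3, DOC replicate 2 or DOC plus PMA replicate 2. CYP26A1, APOLD1, TIPARP, HSPA6 and HS3ST3B1 passed in every alternative that was run. None of the 24 genes with the largest differences passed the interaction test.

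CYP26A1, the enzyme that breaks down retinoic acid, read 4.03, 4.46, 4.48 and 4.47 with DOC and 8.45, 8.38, 7.87 and 8.32 with DOC plus PMA, a rise of 3.89 ± 0.13. Without steroid it read 4.73, 4.36, 4.61 and 4.73 with vehicle and 5.48, 5.51, 5.35 and 5.73 with PMA, a rise of 0.91 ± 0.13. The interaction was 2.98 ± 0.18 (limma adjusted p = 5.65e-08), and the arrays with both agents stood apart from all 12 others.

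TIPARP, an ADP-ribosyltransferase, read 8.84, 8.22, 8.47 and 8.40 with DOC and 10.13, 10.09, 9.98 and 10.09 with DOC plus PMA, a rise of 1.59 ± 0.11 against 0.40 ± 0.11 without steroid (interaction 1.18 ± 0.15, limma adjusted p = 0.00137). APOLD1, an early response gene of endothelium, changed direction. It read 6.59, 6.00, 6.22 and 6.26 with DOC and 7.03, 6.86, 6.89 and 7.29 with DOC plus PMA (0.75 ± 0.13), but 5.55, 5.66, 5.74 and 5.93 with vehicle and 4.54, 5.04, 4.99 and 4.87 with PMA (-0.86 ± 0.13). The interaction was 1.61 ± 0.19 (limma adjusted p = 0.000531). HS3ST3B1, a heparan sulfate sulfotransferase, also went up with DOC (0.42 ± 0.07) and down without (-0.34 ± 0.07), with an interaction of 0.76 ± 0.11 (limma adjusted p = 0.00301).

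HSPA6, a stress-induced HSP70, had the smaller PMA response with steroid. It read 3.85, 3.84, 3.56 and 3.78 with DOC and 5.58, 5.63, 4.71 and 4.76 with DOC plus PMA (1.41 ± 0.21), and 4.39, 3.89, 3.75 and 4.17 with vehicle and 8.06, 7.93, 7.45 and 7.31 with PMA (3.64 ± 0.21). The interaction was -2.23 ± 0.30 (limma adjusted p = 0.002). HSPA6 is close in sequence to other HSP70 genes, and cross-hybridisation was not checked.

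The other 6 genes lost the call without at least 1 single array. XIRP1, an actin-binding protein gene of muscle, rose by 2.85 ± 0.19 with DOC and 1.25 ± 0.19 without. PDK4, a kinase that restrains pyruvate oxidation and a corticosteroid target, read 7.50, 6.73, 6.60 and 6.82 with DOC and 8.72, 8.52, 8.30 and 8.50 with DOC plus PMA (1.60 ± 0.15), against 0.42 ± 0.15 without DOC. RGS2, which dampens G protein signalling, rose by 1.15 ± 0.08 and 0.46 ± 0.08, and the small GTPase gene RHOB by 0.80 ± 0.09 with DOC, while without it the difference of 0.06 ± 0.09 did not pass. TXNIP, an inhibitor of glucose uptake, fell by 1.02 ± 0.15 with DOC and 2.26 ± 0.15 without, and PHLDA1 rose by 3.06 ± 0.09 and 3.83 ± 0.09. PDK4 and RHOB lost the call most often, in 13 alternative settings each. TXNIP, XIRP1 and PHLDA1 also lost it without the 3 arrays that deviated together, where 9 genes passed. With the probe sets of a gene averaged, the interaction was 0.17 for RHOB (limma adjusted p = 0.999), 0.91 for TXNIP (limma adjusted p = 0.296) and -0.71 for PHLDA1 (limma adjusted p = 0.116), and none of these passed.

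**Figure D4:**
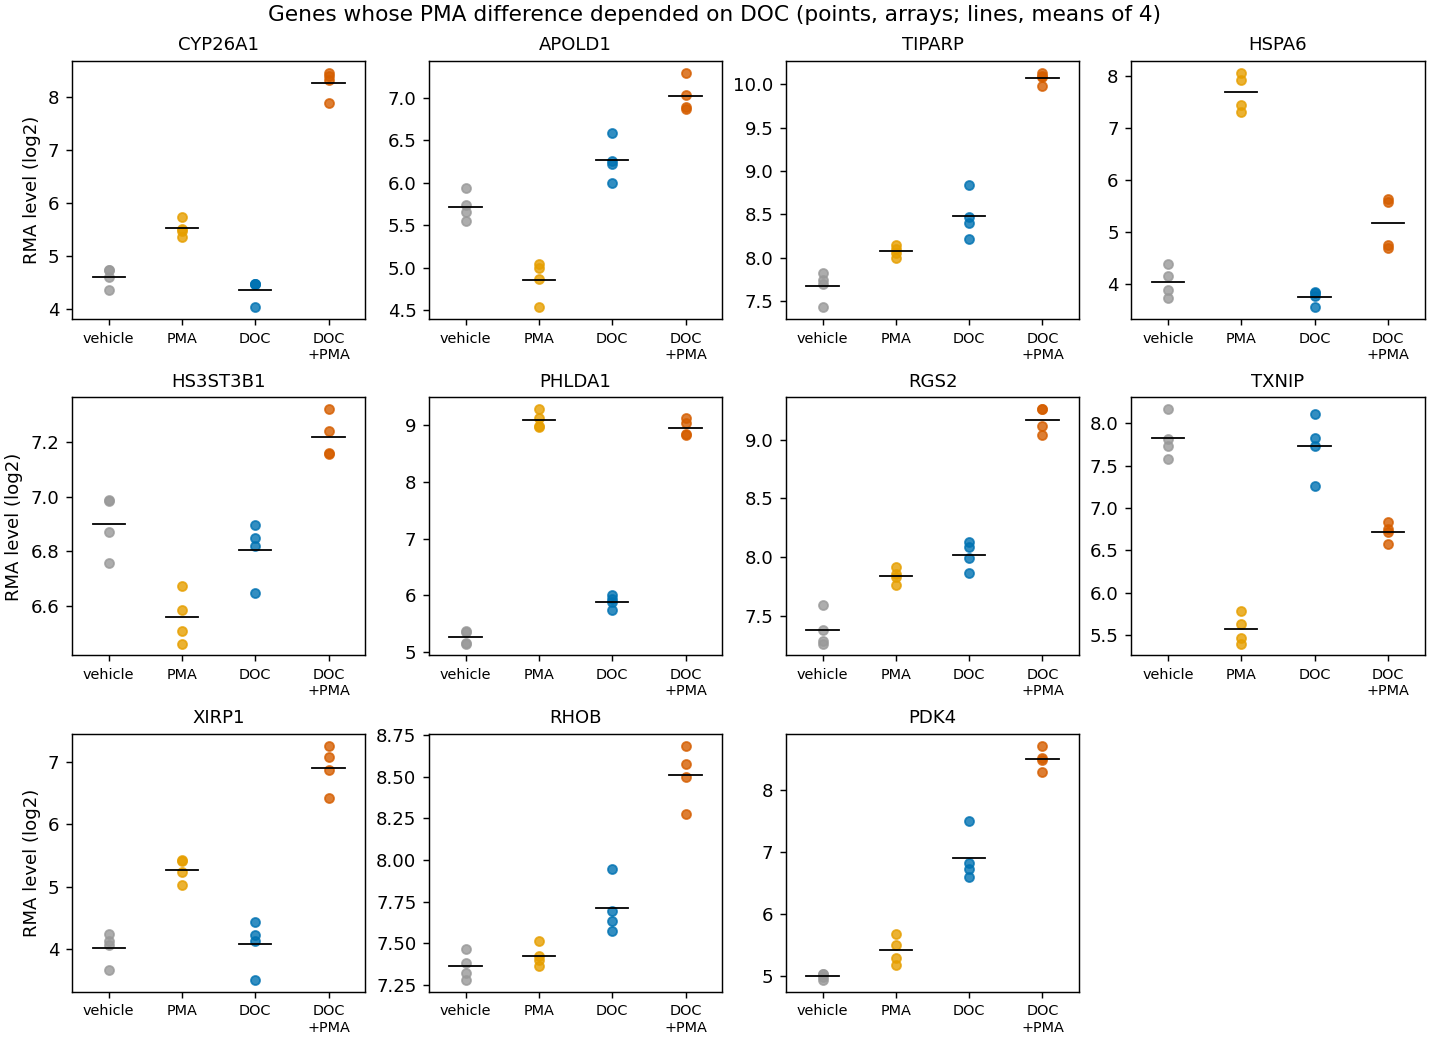
RMA level (log2) in each array (points) with the mean of 4 (lines) for the 11 genes that passed the interaction test, in vehicle, PMA, DOC and DOC plus PMA. CYP26A1 is high in the arrays with both agents (7.87 to 8.45), and APOLD1 falls with PMA alone but rises with PMA on top of DOC.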

How the data were processed

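Biotin-labelled cRNA from HEK293 cells was read on Affymetrix arrays. The deposited values were log2 signals. Per the submitters' processing notes, the authors used RMA and Affymetrix Expression Console, and no version is given in the sources used here. RMA corrects background, gives all arrays one distribution and summarises each probe set. Of 49293 probe sets, 44988 had 1 gene in the platform annotation, 1832 several and 2473 none. Those at or above the 40th percentile of their array in at least 4 of 16 arrays were kept (28226 with 1 gene), and the brightest kept probe set, by mean over the arrays, stood for each of 12495 genes. Among 7495 genes with several kept probe sets, 183 called genes had a called probe set of opposite sign.

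Group means of all 16 arrays were fitted with limma 3.58.1 under R 4.3.3 (lmFit and eBayes). Tests were two-sided, with Benjamini-Hochberg adjustment over all genes and a threshold of 0.05. Differences are given ± standard error. The interaction is the PMA difference with DOC minus that without. The fit was tested on simulated data. Arrays have no read depth, and the number of arrays, 4 per group, limits the precision. The numbers of DOC and DOC plus PMA replicates were not taken as pairs, because deviations of same-numbered arrays correlated at 0.10, -0.08, 0.44 and 0.18.

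The genes named were the 12 largest rises and falls without overlap of arrays, up to 4 called members of each list in each direction, the genes that passed the interaction, 7 steroid pathway genes and the 3 brightest genes at least 4-fold changed. Genes outside this rule are said to be so or are listed with their group. The comparison, the 32 gene lists and the marker lists were chosen with earlier results of these data known. Alternatives covered the filter, the scaling, the summary of probe sets, the arrays fitted, the replicate block, array weights, the variance prior and leaving out arrays.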

Additional observations from a re-analysis of the deposited data

Results flagged for a closer look

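Among named genes, 1 array stood apart from the other 3 of its group (gap over range above Dixon's critical value) in 19 of 420 groups of 4 arrays, and chance flags about 1 in 20. In the DOC group the gap over the range was 0.969 for ARC (replicate 3, high), 0.934 for SMAD6 and 0.947 for COL1A1 (replicate 3, low), 0.877 for EPHA2, 0.874 for PFKFB3 and 0.846 for PAX2 (replicate 1, high), and 0.885 for ZNF143, 0.886 for HARS2 and 0.964 for CYP26A1 (replicate 1, low). In the DOC plus PMA group it was 0.945 for CCL7 and 0.839 for BAX (replicate 1, high), 0.905 for ZFP14 (replicate 1, low), 0.895 for HBEGF, 0.846 for PTGER2, 0.866 for CCN2 and 0.883 for FHL2 (replicate 2, high), 0.884 for GADD45A (replicate 3, high), 0.895 for NHLRC1 (replicate 3, low) and 0.903 for EDN1 (replicate 4, low). The range within the group was as small as 0.0878 log2 units for SMAD6 and as large as 1.06 for ARC.

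The PMA difference was larger on the log2 scale with DOC than without, by the limma interaction test, for CYP26A1 (2.98), APOLD1 (1.61), XIRP1 (1.59), TXNIP (1.24, a smaller fall), TIPARP (1.18), PDK4 (1.18), HS3ST3B1 (0.76), RHOB (0.73) and RGS2 (0.69). It was smaller with DOC for HSPA6 (-2.23) and PHLDA1 (-0.77).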

How the results depend on the processing

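The count of 5323 genes for DOC plus PMA against DOC was 4685 to 6145 over the alternatives, and 4752 to 5103 when 1 array was left out. With the replicate block, which assumes a pairing that not every pair showed, 5574 genes passed, and 15 passed the interaction. The best match of DOC replicates 3 (0.44) and 4 (0.18) was the DOC plus PMA array of the same number, while that of replicate 1 was replicate 2 (0.425) and that of replicate 2 was replicate 3 (0.12). The interaction count of 11 was 25 with array weights and 5 to 14 when 1 array was left out. Of 206 called genes among the 210 named, 24 changed call or sign in at least 1 alternative. The signs of BCL2L11 (0.11) and MKI67 (-0.21) reversed when probe sets were averaged, because their probe sets differ in sign. Interferon-induced genes had 16 lower members with the replicate block against 5 without. Limits are the single time of 4 h, one cell line, dim probe sets near the floor of RMA and the common distribution of arrays.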

Other observations

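Large differences also occurred in genes outside the lists, named here after their values were seen. Among surface and secreted proteins, CEMIP, a hyaluronan-degrading protein, rose by 3.73 ± 0.10, TNFRSF12A, the receptor of TWEAK, by 3.18 ± 0.13, the neuropeptide gene TAC1 by 2.90 ± 0.13, SDC4, a heparan sulfate proteoglycan, by 2.75 ± 0.08 and the matrix protein THBS1 by 2.36 ± 0.19. RRAD, a small GTPase (3.35 ± 0.24), RGCC (2.94 ± 0.10), EMP1 (2.78 ± 0.11), RGS4, which dampens G protein signalling (2.77 ± 0.09), and HOMER1, a synaptic scaffold (2.62 ± 0.10), rose as well. With probe sets averaged, RGS4 rose by 1.60.

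Several developmental signalling genes were among the falls. SEMA6D, a semaphorin, fell by 1.76 ± 0.12, the ligand WNT5A by 1.52 ± 0.14 and the Wnt receptor FZD2 by 1.38 ± 0.08. EPHA7 (-1.49 ± 0.11), the cadherin gene FAT4 (-1.47 ± 0.22), the transcription factor ISL1 (-1.35 ± 0.08), the receptor kinase KIT (-1.29 ± 0.09) and SLC40A1, the iron exporter ferroportin (-1.72 ± 0.11), fell too, and all 18 genes of both paragraphs passed in each alternative that gave them a value.

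Of the aminoacyl-tRNA synthetases, 11 of 16 with a symbol ending in 2, which encode mitochondrial enzymes, were lower, against 2 of 17 with a symbol ending in 1. After cyclic loess or at a common median, 6 of the 16 and 1 of the 17 were lower. This split was chosen after the values were seen and was not tested. HARS2 fell by 0.98 ± 0.10, IARS2 by 0.47 and TARS2 by 0.45.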
